A study of Homo sapiens with 4 samples.

Results

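The genes described are 10 genes known to be induced when cells lack oxygen and not part of glycolysis: NDRG1, VEGFA, ADM, CA9, BNIP3, EGLN3, ANKRD37, P4HA1, ANGPTL4 and SLC2A1. They were chosen by symbol, with earlier results of these data known, and each matched 1 of the 22494 rows of the deposited count and FPKM tables. Poly(A) RNA was sequenced from 2 established cell lines of human endometrial cancer, HEC-1-A and RL-95-2. Cells of either line received a tRF-20-S998LO9D mimic, which imitates a fragment of a transfer RNA, or the matching negative control. The 4 groups hold 1 library each, so the spread between cultures was not measured. The labels give no oxygen level, no dose of the mimic and no time after transfection.

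When oxygen is plentiful, prolyl hydroxylases of the EGLN family mark the HIF-alpha proteins, and the VHL ubiquitin ligase has them destroyed. When oxygen falls, HIF-alpha escapes, pairs with ARNT and binds hypoxia response elements, whose core reads ACGTG or GCGTG, near its target genes. The products of those targets raise blood supply (VEGFA, ADM), glucose uptake (SLC2A1), acid export (CA9) and collagen processing (P4HA1), remove mitochondria (BNIP3) and, through EGLN3, feed back on HIF itself. Several of these genes also respond to other stresses.

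The core motif was searched on both strands of promoter windows from 250 bases before to 50 after the start of transcription, taken from RefSeq (GRCh38.p14). A window was matched for 8 of the 10 genes, all but NDRG1 and VEGFA. ACGTG was present in 5 of the 8 windows (62.5%), against 23.9% of 14510 windows of symbols in the count table. GCGTG was present in 3 of 8 (37.5%), against 44.5%. The windows of CA9, BNIP3, ANKRD37, P4HA1 and ANGPTL4 held ACGTG, those of ADM and SLC2A1 held GCGTG alone, and neither was found in that of EGLN3. The stretches that hold ACGTG, the form present in the larger share of these windows, read as follows, 5′ to 3′ on the strand of the gene, with every match to ACGTG or GCGTG or their complements in capitals. A match is a description of the letters, not a bound site, and RefSeq starts can differ from the gene positions given further on.
CA9, chr9:35673885-35673927, plus strand: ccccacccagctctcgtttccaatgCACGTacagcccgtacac
BNIP3, chr10:131981998-131982091, minus strand: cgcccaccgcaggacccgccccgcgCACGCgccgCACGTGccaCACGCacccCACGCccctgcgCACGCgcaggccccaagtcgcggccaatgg
ANKRD37, chr4:185396654-185396727, plus strand: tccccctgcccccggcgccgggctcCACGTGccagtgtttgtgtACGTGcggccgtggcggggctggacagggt
P4HA1, chr10:73096923-73096977, minus strand: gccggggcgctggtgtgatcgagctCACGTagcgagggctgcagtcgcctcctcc
ANGPTL4, chr19:8363905-8363950, plus strand: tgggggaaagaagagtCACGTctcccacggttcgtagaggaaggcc
BNIP3 and ANKRD37 each carry CACGTG, which reads the same on both strands and so matches ACGTG on each. The single match of CA9 lies closest to the start, at -18 to -14, and that of ANGPTL4 farthest, at -234 to -230.

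Totals ran from 33575882 to 46220053 counts per library. Epithelial markers fit the labelled cell type: all 6 (EPCAM, KRT7, KRT8, KRT18, KRT19 and CDH1) were measured in both lines, with a summed level of 1023 FPKM in the HEC-1-A control, 809 in its mimic library, 1360 in the RL-95-2 control and 2226 in its mimic library. Of 6 immune markers, 0 reached a mean of 1 CPM (counts scaled to library size) in HEC-1-A and 1 did in RL-95-2. The same held for 5 endothelial markers, where CDH5 stood at 19.3 CPM in RL-95-2 and VWF and TEK at under 1. Of 6 fibroblast markers, 2 were measured in each line, and COL1A2 and DCN had 0 counts in every library. The highest fibroblast marker averaged 4.67 CPM in HEC-1-A and 67.4 CPM in RL-95-2. Mitochondrially encoded mRNAs had a median log2 ratio, mimic over control, of -0.07 in HEC-1-A, against 0.15 in RL-95-2. The part of these differences in the results was not tested.

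In RL-95-2, all 9 of the genes measured there were lower in the mimic library than in its control, and 4 of them (NDRG1, VEGFA, ANGPTL4 and SLC2A1) at least 2-fold. A gene counted as measured where its 2 libraries averaged 1 CPM or more, after scaling by the TMM method. CA9, the remaining gene, was under that minimum. Among all 13151 features measured in RL-95-2, 6.52% were lower by 2-fold or more and 4.71% were higher by as much, and 0 of the 9 genes were 2-fold higher. The median log2 ratio was -0.99 for the 9 genes and 0.00 for all features. In HEC-1-A, 7 of 9 ratios were above 0 and 0 reached 2-fold in either direction, where 0.871% of 12981 features were 2-fold higher or more and 0.239% were 2-fold lower or more. The median there was 0.21 for the 9 genes and 0.02 for all features. These genes and the gene lists below were chosen with earlier results of these data known. Their counts are thus no independent evidence of a direction. With 1 library on each side there is no test within a line, and the intervals given below are exact 95% binomial intervals of the 2 counts that cover counting error only.

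**Figure D1:**
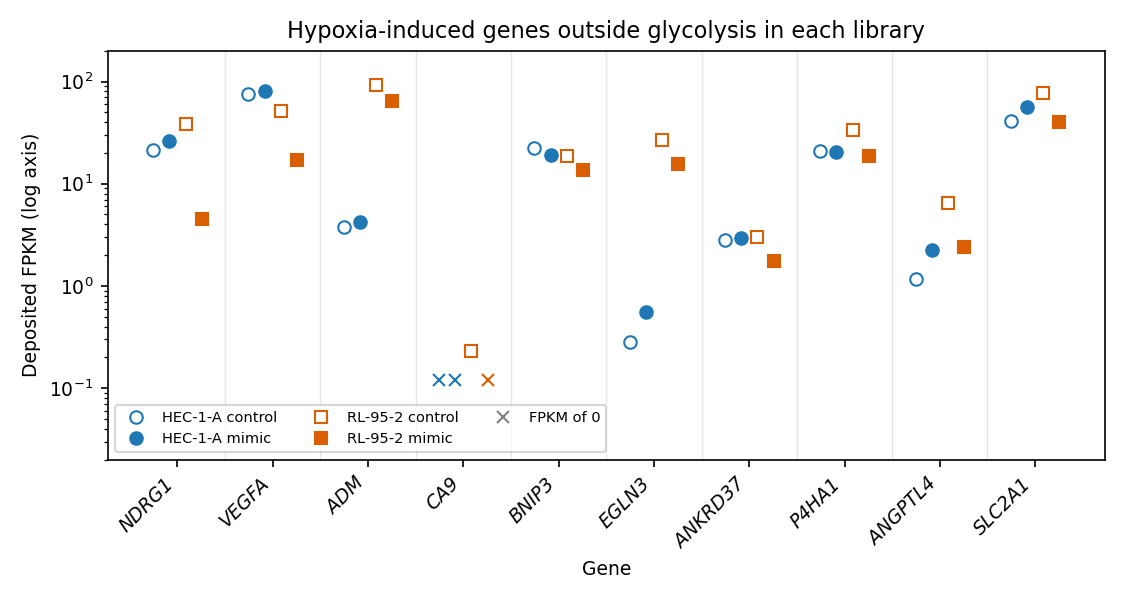
Deposited FPKM (log axis) of each of the 10 genes in the 4 libraries; open symbols are control and filled symbols mimic libraries, circles HEC-1-A and squares RL-95-2, and crosses mark an FPKM of 0, drawn at an arbitrary height. ADM and EGLN3 sit far lower in both HEC-1-A libraries than in both RL-95-2 libraries, and NDRG1 is lowest in the RL-95-2 mimic library at 4.50 FPKM.

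NDRG1 encodes a cytoplasmic protein of the N-myc downstream regulated family that is a common marker of hypoxic tumour cells. Its level was 21.3 FPKM with the control and 26.2 FPKM with the mimic in HEC-1-A, and 38.8 and 4.50 FPKM in RL-95-2. The RL-95-2 control was thus the highest of the 4 libraries and the RL-95-2 mimic the lowest. In RL-95-2, 5256 counts with the control and 702 with the mimic gave 135 and 14.2 CPM, a 9.46-fold difference (log2 ratio -3.24, interval -3.36 to -3.13). Only 35 of the 13151 features measured in RL-95-2 had a lower ratio. In HEC-1-A the log2 ratio was 0.33 (0.26 to 0.40). Among its relatives, NDRG3 had a log2 ratio of 0.30 in HEC-1-A, against 0.83 in RL-95-2, so NDRG1 was the single one of the 4 family members below 0 in RL-95-2. Gene NDRG1 (ENSG00000104419) lies on chromosome 8 at 133237171 to 133302022 of GRCh38, minus strand.

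Of the secreted factors, VEGFA, the main growth factor of blood vessels, stood at 76.3 FPKM in the HEC-1-A control, 80.2 with its mimic, while RL-95-2 had 51.0 FPKM with the control and 17.1 with the mimic. Both HEC-1-A libraries were above both RL-95-2 libraries. Between the RL-95-2 libraries VEGFA was 3.22-fold lower with the mimic (196 and 60.9 CPM, log2 ratio -1.68, interval -1.75 to -1.62), and had a log2 ratio of 0.06 (0.02 to 0.10) in HEC-1-A. VEGFB, a related ligand that is not a classical hypoxia target, had 0.04 and 0.16. The ligand gene VEGFC had 0 counts in both HEC-1-A libraries and a ratio of 0.73 in RL-95-2. Among 5 VEGF receptor genes, NRP1, a co-receptor, had the highest mean FPKM over the 4 libraries, though NRP2 was above it in both RL-95-2 libraries. The log2 ratio of NRP1 in RL-95-2 was 2.25, opposite in sign to that of VEGFA. The kinase receptor gene KDR had 0 counts in 3 of the 4 libraries and 4 in the HEC-1-A mimic library. VEGFA (ENSG00000112715) lies on chromosome 6 at 43770184 to 43786487, plus strand.

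ADM encodes adrenomedullin, a peptide that widens blood vessels. It had 3.75 FPKM in the HEC-1-A control, 4.26 with its mimic, while RL-95-2 had 92.4 FPKM with the control and 64.7 with the mimic, the highest of the 10 genes per length in both RL-95-2 libraries. The mimic library of RL-95-2 was 1.56-fold lower (log2 ratio -0.64, interval -0.69 to -0.59), and the HEC-1-A ratio of 0.21 had an interval from -0.02 to 0.44 that holds 0. The related peptide gene ADM2 had a log2 ratio of -0.16 in HEC-1-A, against -2.55 in RL-95-2. The receptor genes were low: CALCRL had at most 30 counts in a library, RAMP1 at most 16, and RAMP2 and RAMP3 had 0 counts in all 4. ADM (ENSG00000148926) lies on chromosome 11 at 10304680 to 10307397, plus strand.

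ANGPTL4, a secreted inhibitor of lipoprotein lipase, was listed at 1.18 and 2.25 FPKM in the control and mimic libraries of HEC-1-A and at 6.51 and 2.38 FPKM in those of RL-95-2. It had the most opposed responses after NDRG1. In HEC-1-A it was 1.97-fold higher with the mimic (82 and 218 counts, log2 ratio 0.96, interval 0.60 to 1.36), with 126 of 12981 features higher. On log2(FPKM + 1), which understates the change of low genes, the HEC-1-A value was 0.58. In RL-95-2 it was 3.06-fold lower (554 and 229 counts, log2 ratio -1.60, interval -1.84 to -1.39). The other 7 angiopoietin-like genes did not reach a mean of 1 CPM in either line. ANGPTL4 (ENSG00000167772) lies on chromosome 19 at 8363289 to 8374373, plus strand.

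EGLN3, the prolyl hydroxylase that HIF itself induces, was the gene that set the lines furthest apart. Its level was 0.28 FPKM (30 counts) with the control and 0.56 FPKM (79 counts) with the mimic in HEC-1-A, and 26.7 FPKM (3183 counts) and 15.4 FPKM (2180 counts) in RL-95-2. The log2 ratio was 0.93 in HEC-1-A, with a wide interval from 0.34 to 1.62 at these few counts, and -0.88 (-0.96 to -0.80) in RL-95-2. The HEC-1-A value was 0.28 on log2(FPKM + 1). EGLN1, the main oxygen sensor, had -0.15 and -0.03, and EGLN2 had -0.05 and 0.04. EGLN3 (ENSG00000129521) lies on chromosome 14 at 33924231 to 34462774, minus strand.

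P4HA1, a catalytic subunit of the hydroxylase that stabilises collagen, had 20.8 and 20.2 FPKM in the HEC-1-A control and mimic libraries and 33.6 and 18.6 FPKM in those of RL-95-2. The RL-95-2 control was the high library, and the other 3 lay close together. The log2 ratio was -0.99 in RL-95-2 (-1.06 to -0.92), a 1.98-fold difference just under the 2-fold mark, and -0.01 in HEC-1-A (-0.09 to 0.07). The partner subunit gene P4HB had 0.01 and 0.35, and P4HA2, also a hypoxia target, 0.53 and 0.18. P4HA1 (ENSG00000122884) lies on chromosome 10 at 73007217 to 73096974, minus strand.

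BNIP3, a mitochondrial outer membrane protein that marks mitochondria for autophagy, varied little, at 22.2 and 19.1 FPKM in the control and mimic libraries of HEC-1-A and 18.7 and 13.5 FPKM in those of RL-95-2. Its intervals lay below 0 in both lines, at a log2 ratio of -0.20 (-0.28 to -0.12) in HEC-1-A, against -0.57 (-0.66 to -0.49) in RL-95-2. BNIP3L, its paralog with the same role, differed more in RL-95-2, at 267 CPM with the control and 72.8 with the mimic (log2 ratio -1.88), and had 0.11 in HEC-1-A. BNIP3 has processed pseudogenes in the genome, and how reads shared with them were counted is not given in the sources used here. BNIP3 (ENSG00000176171) lies on chromosome 10 at 131966455 to 131982013, minus strand.

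SLC2A1, which encodes the basal glucose transporter GLUT1, had 40.6 FPKM in the HEC-1-A control, 56.1 with its mimic, while RL-95-2 had 77.5 FPKM with the control and 40.3 with the mimic. It ranked second among the 10 genes in each library. The HEC-1-A level was 1.41-fold higher with the mimic (5594 and 10659 counts, log2 ratio 0.50, interval 0.45 to 0.54), while RL-95-2 had a 2.11-fold lower level (12848 and 7678 counts, log2 ratio -1.08, interval -1.12 to -1.04). Of the other sugar transporter genes, SLC2A3 (GLUT3), another hypoxia target, had 443 CPM in the RL-95-2 control and 128 in its mimic library (log2 ratio -1.79), against 0 and 6 counts in HEC-1-A. The urate transporter gene SLC2A9 had -1.12 in RL-95-2 and 0.27 in HEC-1-A. In all, 5 of the 9 sugar transporter genes measured in RL-95-2, SLC2A1 included, were at least 2-fold lower, against 6.52% of all features. SLC2A14 is a near copy of SLC2A3, and reads of the 2 may not be told apart. SLC2A1 (ENSG00000117394) lies on chromosome 1 at 42925375 to 42959176, minus strand.

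ANKRD37, an ankyrin repeat protein gene of little known function that responds to HIF, was low in all libraries, at 2.80 and 2.96 FPKM in the control and mimic libraries of HEC-1-A and 3.01 and 1.74 FPKM in those of RL-95-2. Its log2 ratio was 0.16 in HEC-1-A (-0.20 to 0.53), against -0.90 in RL-95-2 (-1.33 to -0.52), from 132 and 88 counts. UFSP2, which lies on the opposite strand, overlaps 35.2% of the exonic length of ANKRD37 and had ratios of 0.08 and -0.30. The strand setting of the counts is not given, so reads from the overlapping part cannot be assigned to 1 of the genes. ANKRD37 (ENSG00000186352) lies on chromosome 4 at 185396021 to 185400628, plus strand.

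CA9, a cell surface carbonic anhydrase that is among the most specific hypoxia markers, was close to absent. It had 17 counts in the RL-95-2 control (0.23 FPKM) and 0 in the other 3 libraries. Against a floor of 3 counts in the mimic library, and with the 17 counts taken as exact, CA9 was at least 7.16-fold lower with the mimic in RL-95-2. The exact 95% interval of the 2 counts, which counts the error of both, reaches up to a log2 ratio of -2.38. No fold is given for HEC-1-A, where both libraries were at 0. ARHGEF39 overlaps 38.5% of the exonic length of CA9 on the opposite strand and had 1131 counts in the RL-95-2 control and 2181 in its mimic library, so the source of the 17 counts is uncertain. The related CA12, another hypoxia-induced surface enzyme, had 280 and 339 counts in HEC-1-A and 0 in both RL-95-2 libraries. CA11 was the most abundant carbonic anhydrase gene per length, at a log2 ratio of 0.12 in HEC-1-A, against -0.67 in RL-95-2. CA9 (ENSG00000107159) lies on chromosome 9 at 35673856 to 35681159, plus strand.

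**Figure D2:**
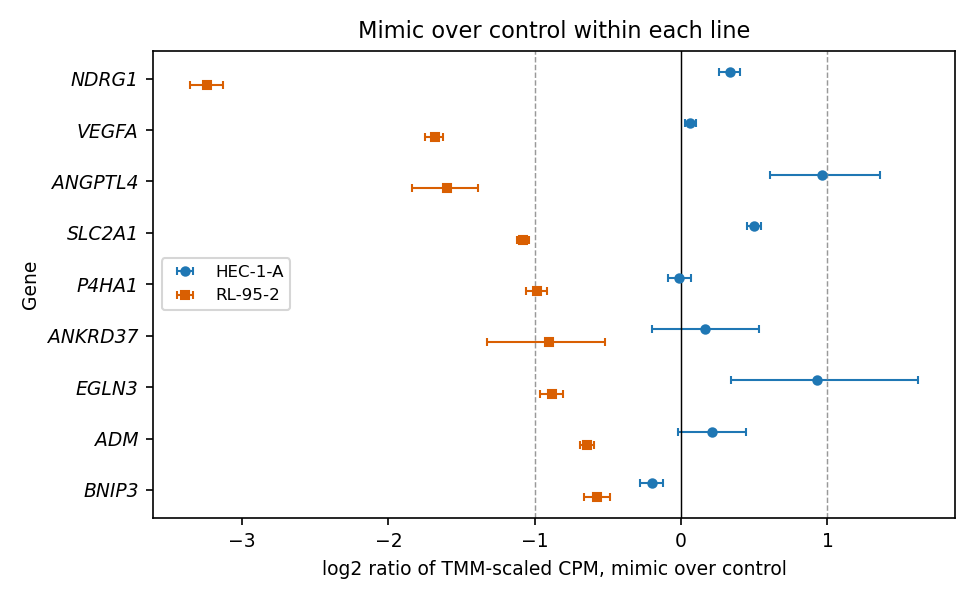
The log2 ratio of TMM-scaled CPM, mimic over control, in HEC-1-A (circles) and RL-95-2 (squares) for the 9 genes measured in both lines, with exact 95% intervals of the 2 counts as bars and dashed lines at 2-fold. All 9 squares lie below 0, from -3.24 for NDRG1 to -0.57 for BNIP3, while the circles run from -0.20 to 0.96.

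The ratios of the lines differed for each of the 9 genes by more than counting error. The share of all features for which this holds is not given here, so it is not shown to be particular to these genes. The log2 ratio in RL-95-2 minus that in HEC-1-A was -3.57 for NDRG1 (95% counting interval -3.70 to -3.43), -2.56 for ANGPTL4 (-2.99 to -2.14) and -1.81 for EGLN3 (-2.42 to -1.20). It was smallest in size for BNIP3, at -0.37 (-0.49 to -0.26). The difference could not be tested against replicates, since no degree of freedom remains for it in 4 libraries.

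Over both lines, with the cell line as the block that pairs the mimic and control libraries, edgeR called 0 of the 9 genes tested, and 0% of all 15957 features. The adjusted p was 0.9999 for each gene, and 0 of the 9 had an unadjusted p under 0.05 (167 of all features did). Of the other tools, DESeq2 called 0 of the 9 genes (1 of all features) and limma-voom 0 (0 of all features). The edgeR log2 fold changes ran from -1.45 (SE 0.86, n = 2 per transfection) for NDRG1 to -0.13 (SE 0.45) for EGLN3, all 9 below 0. Only BNIP3 and P4HA1 had a ratio below 0 in 2 of 2 lines, and the other 7 in 1 of 2. The NDRG1 value was 0.33 with RL-95-2 left out and -3.24 with HEC-1-A left out. The SEs and p-values of this fit rest on how far the lines differed in mimic over control, with 1 residual degree of freedom. They also draw on that difference in other features, since edgeR moderates the variance of each gene. The 0 calls do not show that the genes were unchanged.

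The level of the genes in each line was compared with edgeR across the 4 libraries, with transfection as the block and n = 2 libraries per line. Of the 9 genes tested, 1 was called higher in HEC-1-A and 2 higher in RL-95-2, against 16.7% and 18.3% of 15957 features. EGLN3 was 45.2-fold lower in HEC-1-A (log2 fold difference -5.50, SE 0.50, edgeR adjusted p = 0.000466), and ADM 18.1-fold lower (-4.18, SE 0.32, adjusted p = 0.000222). Each was lower in both HEC-1-A libraries than in both RL-95-2 libraries. VEGFA was 2.76-fold higher in HEC-1-A (1.47, SE 0.44, edgeR adjusted p = 0.044). That VEGFA call was lost with RLE size factors (adjusted p = 0.0502) and with no replicate block (0.12). It held with DESeq2 (adjusted p = 0.011), limma-voom (0.040) and no filter on low counts (0.040). With limma it also held on log2(FPKM + 1) (0.024) and log2(FPKM + 0.1) (0.0069). Fits with 1 library left out also have no block, since 3 libraries cannot carry it. There the log2 difference of VEGFA was 1.27 without the HEC-1-A control and 1.21 without the HEC-1-A mimic library. It was 2.31 without the RL-95-2 control and 0.61 without the RL-95-2 mimic library.

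**Figure D3:**
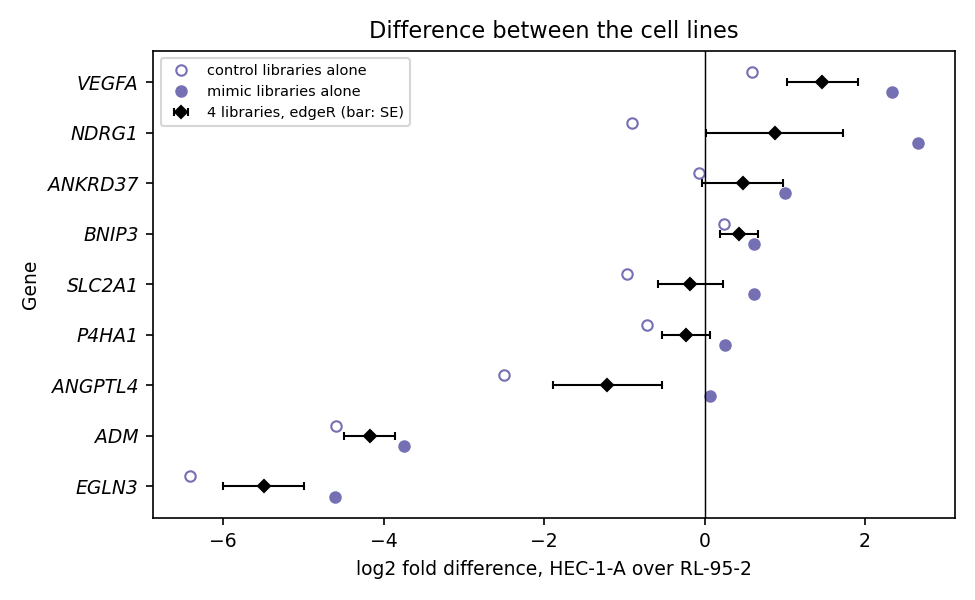
The log2 fold difference of HEC-1-A over RL-95-2 for the 9 genes tested: diamonds are the edgeR fit to 4 libraries with its SE as bars, open circles the 2 control libraries alone and filled circles the 2 mimic libraries alone. EGLN3 and ADM lie below -3 in each, while NDRG1 is at -0.90 between the control libraries and 2.67 between the mimic libraries.

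The other 6 genes were not called, which does not show that the lines were alike, and for several the order of the lines depended on the transfection. NDRG1 had a log2 difference of -0.90 between the control libraries and 2.67 between the mimic libraries. The corresponding values were -0.96 and 0.61 for SLC2A1, -0.72 and 0.26 for P4HA1, and -2.50 and 0.07 for ANGPTL4. BNIP3 had 0.25 and 0.62, with both HEC-1-A libraries above both RL-95-2 libraries. In a fit with no block on all 4 libraries, 0 genes were called higher in HEC-1-A and 2 lower (3151 and 3495 of all features). Without the RL-95-2 control the log2 difference was 2.51 for NDRG1 and 0.38 for SLC2A1. Without the RL-95-2 mimic library it was -0.74 and -0.71. In the fits that lack an RL-95-2 library the spread comes from the HEC-1-A pair alone.

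By deposited FPKM, the order of the 10 genes in the HEC-1-A control began with VEGFA, SLC2A1, BNIP3, NDRG1 and P4HA1 and ended with ANGPTL4, EGLN3 and CA9. In the RL-95-2 control it began with ADM, SLC2A1, VEGFA, NDRG1 and P4HA1. NDRG1 was above P4HA1 in the RL-95-2 control, at 38.8 and 33.6 FPKM, and below it in the mimic library, at 4.50 and 18.6 FPKM. With 1 library per group, whether neighbours in such an order differ beyond the spread of cultures was not tested.

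The genes of oxygen sensing act upstream of these 10. Of 18 listed genes of the HIF pathway, 16 were measured in each line, HIF3A and ARNT2 being under the minimum. The median log2 ratio was 0.03 in HEC-1-A (9 above 0, 7 below) and -0.25 in RL-95-2 (4 above, 12 below). Of all features, 53.6% and 50.1% were above 0 in these lines. VHL, the tumour suppressor that targets HIF-alpha, was the single one of the 16 genes at least 2-fold apart. It had 64.1 FPKM in the RL-95-2 control and 29.3 in its mimic library (log2 ratio -1.25, interval -1.30 to -1.20). Among all features measured in RL-95-2, 6.52% were lower by 2-fold or more, so 1 of 16 is near that share. HIF1A, the oxygen-regulated subunit, had 0.43 in HEC-1-A against -0.40 in RL-95-2. EPAS1, which encodes HIF-2alpha, had -0.01 and -0.12, and their partner ARNT -0.13 and -0.25. HIF1AN, the asparagine hydroxylase that curbs HIF activity, had -0.10 and -0.08.

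Subunits of the VHL ligase had small ratios, with CUL2 at 0.05 and 0.11, RBX1 at 0.07 and 0.46, TCEB2 (elongin B) at 0.10 and 0.47 and TCEB1 (elongin C) at 0.17 and -0.25. Coactivators of HIF were EP300 at 0.15 and -0.33 and CREBBP at 0.08 and -0.47, and CITED2, which competes with HIF for them, had 0.01 and -0.76. SIAH1 and SIAH2, ubiquitin ligases that act on EGLN proteins, had -0.03 and -0.69, and 0.22 and -0.88. Between the lines, edgeR called HIF1A (log2 fold difference 1.22, SE 0.31, adjusted p = 0.026) and CITED2 (1.73, SE 0.28, adjusted p = 0.0046) higher in HEC-1-A. EPAS1 (-1.18, SE 0.23, adjusted p = 0.0091) and EGLN1 (-1.68, SE 0.23, adjusted p = 0.0024) were called higher in RL-95-2. Transcript levels do not report HIF-alpha protein, which oxygen controls.

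Of 40 further hypoxia-induced genes outside glycolysis, 34 were measured in RL-95-2, and 8 were at least 2-fold lower and 1 at least 2-fold higher with the mimic. Among all features measured there, 6.52% were lower and 4.71% higher by as much. The median of their log2 ratios was -0.53, with 24 below 0 and 10 above, where 50.1% of all features were above 0. The lowest with a mean of at least 5 CPM were STC2, a secreted glycoprotein (477 and 95.8 CPM, log2 ratio -2.32), MAFF, a small bZIP factor (-2.21), and RORA, a nuclear receptor (-2.05). The highest were FAM162A, a mitochondrial protein (0.90), GBE1, the glycogen branching enzyme (0.84), and VEGFC (0.73). In HEC-1-A, 33 were measured, 21 above 0 (53.6% of all features were), with a median of 0.07 and 0 at least 2-fold apart. Among those with a mean of at least 5 CPM there, P4HA2 had 0.53 and MAFF 0.47 near the high end, and at the low end TFRC, the transferrin receptor, had -0.26, the lipid droplet gene HILPDA -0.20 and CA12 -0.16.

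Glycolytic enzyme genes, which HIF also induces, were split in direction in RL-95-2. Of 18 measured there, 11 were above 0 and 7 below (50.1% of all features were above 0), with a median log2 ratio of 0.15. At least 2-fold higher were 2 and lower 2, against 4.71% and 6.52% of all features. PGAM1, phosphoglycerate mutase, had 1.27 and HK2, an inducible hexokinase, -1.37. In HEC-1-A the enzymes had a median of -0.02.

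Targets of ATF4, the transcription factor of the integrated stress response, were low in the RL-95-2 mimic library. All 16 listed were lower there by 2-fold or more, against 6.52% of all features. Their median log2 ratio was -2.15, from -4.95 for ATF3 to -1.01 for PSAT1. In HEC-1-A, 12 of 15 were above 0, against 53.6% of all features, with a median of 0.22. That list was chosen with the response of these genes in the same libraries known, so its count is no independent evidence of a direction. Its part in the ratios of the 10 genes was not tested.

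**Figure D4:**
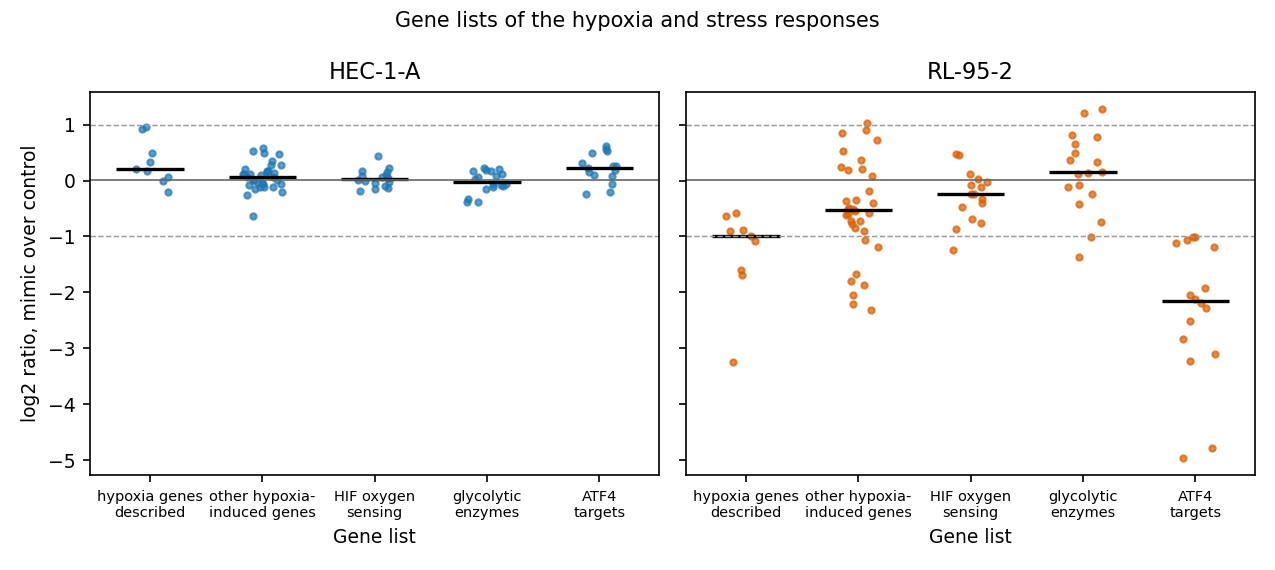
The log2 ratio of mimic over control for each gene with a mean of at least 1 CPM, by list, in HEC-1-A (left) and RL-95-2 (right); black bars are list medians, the grey line is the median of all features and dashed lines mark 2-fold. In RL-95-2 the medians are -0.99 for the hypoxia genes described, -0.53 for other hypoxia-induced genes, -0.25 for HIF oxygen sensing, 0.15 for glycolytic enzymes and -2.15 for ATF4 targets, and in HEC-1-A they lie between -0.02 and 0.22.

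The feature with the most similar profile was sought for each gene with a mean of at least 5 CPM, as the least Euclidean distance between log2 CPM over the 4 libraries, each centred on its mean, among 10704 features. It was PELI2 for NDRG1 (distance 0.20), at a log2 ratio of 0.15 in HEC-1-A, against -3.36 in RL-95-2. For VEGFA it was GKAP1 (0.06), for SLC2A1 APLF (0.09), for ANGPTL4 PLA2G4B (0.16) and for ADM RGPD2 (0.12), a member of a family of near-identical copies. P4HA1 was closest to NRBF2 (0.04) and BNIP3 to AXIN1 (0.03). EGLN3 had the most distant neighbour, DGKA (0.38). Over 4 libraries such likeness is a description of these libraries only.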

How the data were processed

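RNA sequencing of poly(A) RNA gave 4 libraries. The deposited tables hold raw counts and, from the same authors, FPKM of each gene. HISAT2, CASAVA and GRCh38 (hg38) appear in the submitters' processing notes. How reads were counted, and with which annotation and strand, is not given in the sources used here. Totals were 33575882 to 46220053 counts. The 10 genes and all gene lists were chosen with earlier results of these data known.

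CPM were scaled by TMM (edgeR 4.0.16, R 4.3.3). Log2 ratios within a line used a prior count of 2, and 2-fold calls needed a mean of 1 CPM in the line. Tests across features used the edgeR quasi-likelihood test on 15957 features after a filter on low counts, with Benjamini-Hochberg adjustment at 0.05. The test code was also run on simulated counts in which the lines responded alike. That run does not measure how the tests perform on these data. The mimic model had the cell line as block, since the labels pair libraries by line, and the line model had transfection as block. The labels do not say that libraries came from separate cultures, so the spread between the 4 samples may be technical. With a block, 1 residual degree of freedom remains, which is how far the lines differ in mimic over control. The SEs and p-values rest on that difference, in the gene itself and in other features, not on a spread between cultures. The other features enter because edgeR moderates the variance of each gene, with a median of 5.44 prior degrees of freedom in the mimic fit. Alternatives were DESeq2 1.42.0, limma 3.58.1 (voom, and log2 of FPKM plus 1 or 0.1), other scalings, filters and priors. Genes named beside the 10 were the measured HIF pathway genes, the 3 highest and 3 lowest other hypoxia-induced genes per line at 5 CPM, the highest by FPKM and those 2-fold apart at 5 CPM in each gene family, the extremes of the ATF4 and glycolytic lists in RL-95-2 and the nearest profiles, less 1 gene that is not reported here. KDR, VEGFC, CALCRL, RAMP1, RAMP2, RAMP3, SLC2A14 and the marker genes were named after their values were seen. Positions and overlaps came from GENCODE release 29 (GRCh38).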

Additional observations from a re-analysis of the deposited data

Results flagged for a closer look

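For 5 of the 10 genes the mimic library was above its control in HEC-1-A and below it in RL-95-2, with each counting interval on its own side of 0. The log2 ratio in RL-95-2 minus that in HEC-1-A was -3.57 for NDRG1, -2.56 for ANGPTL4, -1.81 for EGLN3, -1.75 for VEGFA and -1.58 for SLC2A1. How many of all features meet the same rule is not given here, so the count of 5 is not shown to be particular to these genes. At high counts the rule admits small differences: VEGFA met it with a HEC-1-A log2 ratio of 0.06 (interval 0.02 to 0.10). With 1 library per line and transfection the difference was not tested.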

How the results depend on the processing

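In RL-95-2, 4 genes were lower by 2-fold or more, and between 3 and 5 under the alternatives: 5 with RLE size factors, where P4HA1 reached -1.01, 5 with no minimum CPM, which adds CA9, and 3 with scaling by library total or on log2(FPKM + 1) or log2(FPKM + 0.1), where SLC2A1 lay between -0.95 and -0.93. All 9 ratios in RL-95-2 stayed below 0 under each scaling and unit. Scaling by library total moved the median of all features in RL-95-2 to 0.13 and log2(FPKM + 0.1) to 0.14, and the median of the 9 genes to -0.86 and -0.85. With those 2 settings the features at least 2-fold higher and lower in RL-95-2 were 866 and 686, and 816 and 610, in place of 619 and 857. With a mean of 5 CPM they were 336 and 605, with no minimum 1691 and 1820, and on log2(FPKM + 1) 352 and 375. In HEC-1-A, 0 of the genes reached 2-fold under any alternative, while the features higher and lower were 18 and 11 at 5 CPM, 1165 and 703 with no minimum and 13 and 13 on log2(FPKM + 1). Over both lines, 0 of the genes were called under any alternative, the fit with no replicate block included (adjusted p between 0.9994 and 0.99997). Of all features, DESeq2 called 1 higher and log2(FPKM + 0.1) called 2 higher and 1 lower, in place of 0. Between the lines, the number called higher in HEC-1-A went from 1 to 0 with RLE size factors and with no replicate block, since the VEGFA call was lost. Leaving out each library in turn, which also removes the block, gave between 0 and 5 called higher and between 2 and 7 called lower, CA9 included, against 0 and 2 with all libraries and no block. The same fits moved the log2 difference of NDRG1 between -0.74 (without the RL-95-2 mimic library) and 2.51, and that of SLC2A1 between -0.71 and 0.38 (without the RL-95-2 control). The number of all features called in those 2 fits was 4949 higher and 5222 lower, and 5272 and 5471, against 3151 and 3495 with all libraries and no block (2671 and 2923 with it), and 1481 to 1734 higher and 1768 to 1801 lower without either HEC-1-A library. The causes were not tested. A fit over both lines without 1 library has no residual degree of freedom and gave values only. At 0 to 17 counts, CA9 allows no more than a bound.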
